A study of Mus musculus with 2 samples.

Results

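The genes described here are 10 precursors of non-opioid neuropeptides known from interneurons and projection neurons of the cerebral cortex: Sst, Cort, Npy, Vip, Adcyap1, Cck, Crh, Tac1, Tac2 and Nts. They are defined by name, with no threshold on their values. A member counted as measured where the platform annotation gave a probe set that named that gene and no other. Each of the 10 had exactly 1 such probe set, so the members are 10 of the 22180 genes named on the array and 10 of its 34472 probe sets.

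The RNA came from medial prefrontal cortex of adult D2Cre::RiboTag mice and was measured on 2 arrays. These mice carry Cre under control of Drd2, the gene of the dopamine D2 receptor, together with RiboTag, an allele that gives Cre-expressing cells a ribosomal protein with a haemagglutinin (HA) tag. An antibody to the tag then precipitates the ribosomes of those cells from dissected tissue, and the messengers that come with them are measured. Because Cre changes the allele for good, a cell that used Drd2 only earlier in life also carries tagged ribosomes. The sample titles speak of Drd2+ cell mRNA, and the labels call each array a technical replicate of a pool of 5 mice. That both arrays share 1 pool is taken from this wording and not stated outright. There is 1 group. Input RNA, a mock precipitation and a further condition were not analysed here, so nothing below measures enrichment, and a peptide's signal does not show that the captured cells make it.

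Neuropeptides are cut from longer precursors in the secretory pathway, stored in dense-core vesicles and released to act on G-protein-coupled receptors, usually more slowly and over a longer distance than glutamate or GABA. In the cortex somatostatin, neuropeptide Y, vasoactive intestinal peptide, cortistatin and corticotropin-releasing hormone are known mostly from subclasses of GABAergic interneurons, and their genes serve as markers of these classes. Cholecystokinin is made by both interneurons and pyramidal cells, and the pituitary adenylate cyclase-activating peptide (PACAP) is known from projection neurons. Several of these precursor genes are classic targets of the cyclic AMP pathway, which acts through the factor CREB at a short DNA element, the cAMP response element.

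Signals are given in log2 units. That scale was inferred from the values, which ran from 1.66 to 14.18 on replicate 1 and 1.74 to 14.16 on replicate 2. Errors are SDs over the 2 technical arrays and hold no variation between animals. Chemosensory receptor genes (1394 olfactory and vomeronasal ones) set the background. They were taken to be mostly silent in cortex, which was not checked. A gene was called where both of its signals passed the 95th percentile of these genes. That percentile was 5.61 for replicate 1 and 5.66 for replicate 2. The call is permissive for low signals, since 2 of 10 testis, 2 of 12 liver and 6 of 10 skeletal muscle genes also passed it. Across probe sets, whose values are not independent, the arrays correlated with a Pearson's r of 0.9941, and their difference had an SD of 0.249. Drd2 itself gave 10.78 on replicate 1 and 10.70 on replicate 2. All 7 measured GABAergic markers and all 7 measured markers of cortical glutamatergic neurons were above background, beside 60.3% of all named genes. So were all 8 astrocyte, all 7 measured oligodendrocyte and all 7 measured microglia markers, and 7 of 8 endothelial and mural cell markers. Striatal projection neurons lie outside the cortex, and some of them also use Drd2. Of 6 measured markers of these neurons, 5 were above background. Drd2 itself, whose control elements drive Cre here, is among the 5. So are Gpr6 at 8.90 ± 0.01, Rgs9 at 8.81 ± 0.06 and Pde10a at 9.56 ± 0.14, and Isl1 was not called at 5.34 and 5.49. At the stricter out-of-tissue threshold described below, which 38.2% of all named genes passed, the counts were 7 of 7 GABAergic, 6 of 7 glutamatergic, 5 of 6 striatal (Drd2 included), 6 of 8 astrocyte, 6 of 7 oligodendrocyte, 3 of 7 microglia and 2 of 8 vascular markers. The microglia count stood near that share and the vascular count below it. Some markers of each of these cell types thus gave signal in this RNA. The part of any of these cell types in the peptide signals was not tested. In bulk RNA of this kind, fewer cells of a type and less RNA per cell cannot be told apart.

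The start regions of the members are shown first, because the cAMP response element is a well known regulatory sequence that several of these genes share. RefSeq promoter windows (GRCm38.p6, 250 bases before to 50 bases after the annotated start) were at hand for 9 of the 10 members, Crh being the one without a window. The element was searched as the palindrome TGACGTCA, which reads the same on both strands, and as its core letters TGACG, which on the other strand read CGTCA and lie inside the palindrome. Positions are counted from the start, with -1 as the last base before it. The windows are written 5′ to 3′ on the strand of the gene, with the matched letters in capitals. Sst is shown in full and the others as the stretch around each match:
Sst, chr16:23890795-23891094, minus strand: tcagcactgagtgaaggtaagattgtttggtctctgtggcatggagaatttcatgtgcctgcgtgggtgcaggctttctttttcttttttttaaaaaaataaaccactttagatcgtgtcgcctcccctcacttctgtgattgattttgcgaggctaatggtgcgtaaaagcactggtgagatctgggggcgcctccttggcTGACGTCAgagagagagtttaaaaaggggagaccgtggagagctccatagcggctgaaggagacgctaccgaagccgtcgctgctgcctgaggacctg
Cort, chr4:149126759-149126799, minus strand: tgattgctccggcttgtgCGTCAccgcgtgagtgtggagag
Vip, chr10:5639121-5639161, plus strand: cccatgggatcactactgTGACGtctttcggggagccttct
Adcyap1, chr17:93198908-93198948, plus strand: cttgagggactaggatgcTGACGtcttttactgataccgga
Cck, chr9:121495719-121495759, minus strand: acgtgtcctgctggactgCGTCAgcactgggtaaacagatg
Tac1, farther copy, chr6:7554846-7554886, plus strand: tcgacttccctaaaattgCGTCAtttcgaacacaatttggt
Tac1, nearer copy, chr6:7555000-7555040, plus strand: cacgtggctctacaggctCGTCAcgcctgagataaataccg
Nts, chr10:102490562-102490602, minus strand: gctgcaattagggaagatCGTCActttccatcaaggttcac

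The palindrome was present in 1 of the 9 members, Sst, at positions -48 to -41. The element of this kind in the rat Sst gene is a textbook site of CREB binding. Over all genes in the promoter table, 2.03% had the palindrome in at least 1 window, and 1.79% of all windows held it. The core letters on either strand were found in 7 of the 9 members, against 23.05% of all genes and 20.81% of all windows. Beside Sst, whose palindrome contains them, they lay at -18 to -14 in Cort, -79 to -75 in Vip, -91 to -87 in Adcyap1, -47 to -43 in Cck, -197 to -193 and again -43 to -39 in Tac1, and -166 to -162 in Nts. Adcyap1 had 2 overlapping windows that contain the same copy, and it is counted once. In Npy and Tac2 the letters were not in the window. These counts describe sequence and were not tested, and the arrays hold no measure of binding or of cyclic AMP.

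**Figure D1:**
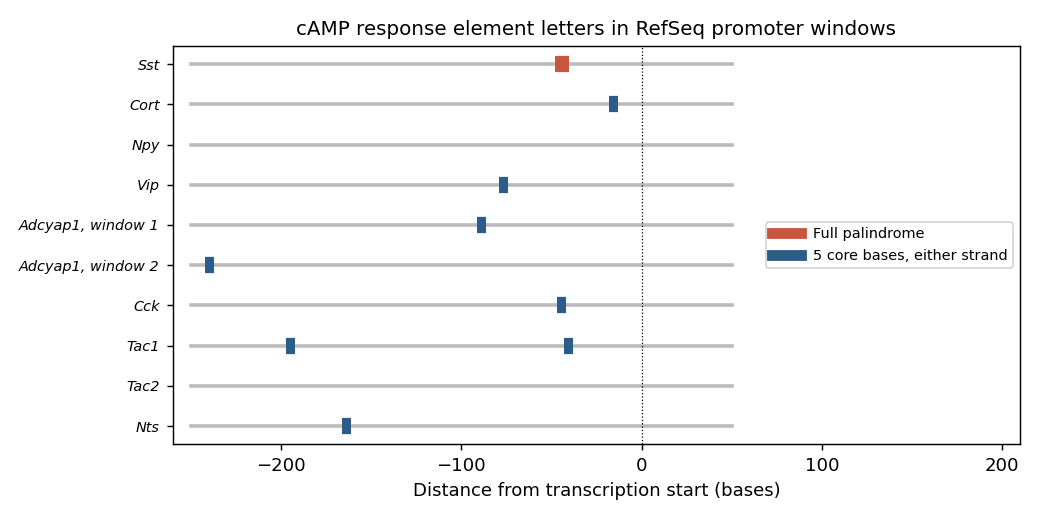
Position of the cAMP response element letters in the RefSeq promoter windows of 9 members, with distance from the annotated start in bases on the horizontal axis and a grey line for each window. The full palindrome (red) is present in Sst alone at -48 to -41, and the core letters (blue) are present in Cort, Vip, Adcyap1, Cck, Tac1 and Nts.

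All 10 precursor genes were above background on both arrays, where 60.3% of all named genes were. Their median signal was 9.015, against 6.355 over all named genes. Margins over background, averaged over the arrays, ran from 0.69 log2 units for Nts to 8.07 for Sst, with a median of 3.38. Probe sets differ in how strongly they bind their targets, so these signals give no order of abundance among the peptides. A margin takes the same value from every gene on an array, so it has the same limit. The members are described below by their margins and their repeatability, family by family.

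Sst, the precursor of somatostatin, an inhibitory peptide of interneurons that contact dendrites, gave 13.67 on replicate 1 and 13.74 on replicate 2, a mean of 13.705 ± 0.05 (SD, n = 2 arrays). Both values stood close to the top of the arrays' scale, where whether signals were compressed was not tested. Cort encodes cortistatin, a peptide related to somatostatin that binds the same receptors. It gave 7.86 on replicate 1 and 7.79 on replicate 2, on average 2.19 units over background. Sst and Cort were thus both called, Sst by 8.07 units.

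Npy, the precursor of neuropeptide Y, gave 12.04 on replicate 1 and 12.10 on replicate 2, 6.43 units over background on average. Neuropeptide Y is found in neurogliaform cells and in some somatostatin cells of the cortex. Cck, the precursor of cholecystokinin, one of the most abundant peptides of the cortex, gave 12.89 on replicate 1 and 12.93 on replicate 2, 7.27 units over background. The arrays placed Npy within 0.06 and Cck within 0.04 of each other.

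Vip and Adcyap1 encode related peptides, vasoactive intestinal peptide and PACAP, which share receptors. Vip, a marker of interneurons that inhibit other interneurons, gave 9.56 on replicate 1 and 9.50 on replicate 2, 3.89 units over background. Adcyap1 gave 8.24 on replicate 1 and 8.25 on replicate 2, 2.61 units over background. Its difference of 0.01 was the smallest among the members.

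The tachykinin precursors were both called. Tac1, which yields substance P and neurokinin A, gave 8.56 on replicate 1 and 8.44 on replicate 2, 2.86 units over background. Tac2, which yields neurokinin B, gave 9.73 on replicate 1 and 9.91 on replicate 2, 4.18 units over background. These genes differed most between the arrays, and in opposite directions: Tac2 was 0.18 higher and Tac1 fell by 0.12 on replicate 2 relative to replicate 1.

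Crh, the precursor of corticotropin-releasing hormone, a stress peptide that cortical interneurons also make, gave 7.81 on replicate 1 and 7.75 on replicate 2, 2.14 units over background. Nts, the precursor of neurotensin, a peptide known for its interplay with dopamine signalling, gave 6.28 on replicate 1 and 6.37 on replicate 2. Both values of Nts passed background, by 0.69 units on average, the smallest margin among the members.

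**Figure D2:**
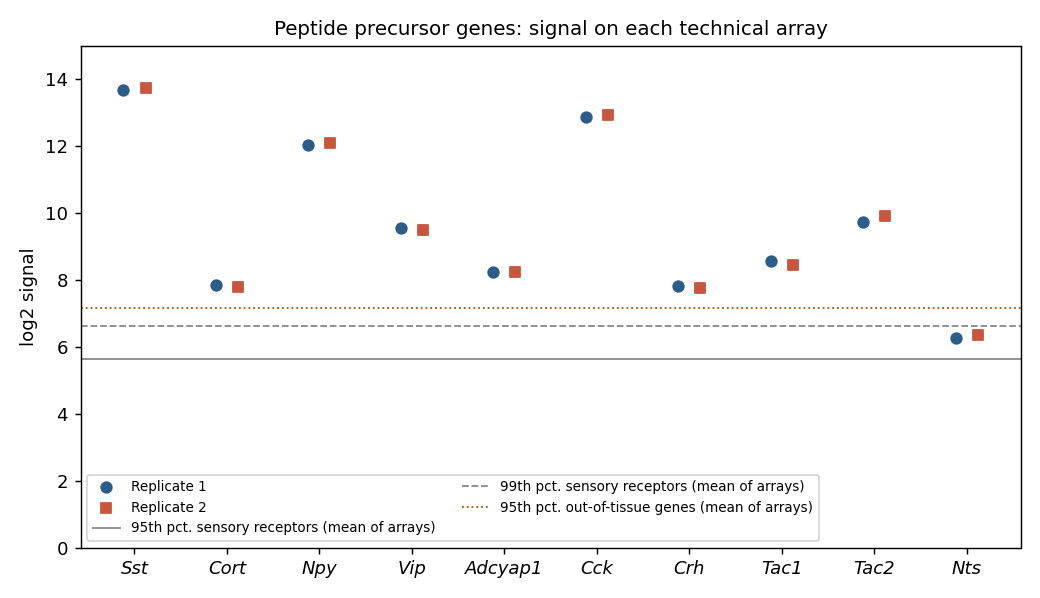
Log2 signal of the 10 precursor genes on replicate 1 (circles) and replicate 2 (squares), with lines at the 95th and 99th percentiles of the chemosensory receptor genes and at the 95th percentile of testis, liver and skeletal muscle genes, each line the mean of the arrays' thresholds. Both values of every gene except Nts (6.28 and 6.37) lie above all 3 lines.

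Stricter thresholds separated Nts from the other members. With the 99th percentile of the chemosensory receptors as threshold, 6.64 on each array, 9 of the 10 members were called, beside 45.0% of all named genes. A threshold from 32 testis, liver and skeletal muscle genes, at 7.26 on replicate 1 and 7.06 on replicate 2, also left 9 of 10, beside 38.2% of all named genes. Nts missed both, by 0.31 and 0.83 units on average. The members nearest above the out-of-tissue threshold were Crh, by 0.62 units, and Cort, by 0.67 units. Acta1, a skeletal muscle gene of the out-of-tissue list itself, stood higher than both, at 7.89 on replicate 1 and 8.08 on replicate 2. That threshold is set by few genes. Without Odf1, a sperm tail gene whose probe sets stood at 4.98 and 10.015, it dropped to 6.88 on replicate 1 and 6.66 on replicate 2, and 9 of 10 members passed, beside 42.9% of all named genes. Nts still missed it, by 0.44 units. The median of all probe sets, at 5.80 on replicate 1 and 5.81 on replicate 2, was passed by 10 of 10 members and by 57.5% of all named genes.

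The arrays repeated each other closely for the members. The absolute difference between them had a median of 0.07 log2 units over the 10 genes, against 0.12 over all named genes. It exceeded 0.1 units in 2 of the 10 members and in 55.6% of all named genes. Since the spread narrows as signal rises, each member was also set beside the 500 named genes nearest to it in mean signal, whose differences had an SD between 0.09 for Sst, Npy and Cck and 0.19 for Nts. The difference was smaller than that SD in 9 members. Tac2 was the exception, at 1.70 times the SD of 0.11 around it. Replicate 2 was the higher array for 6 members (Sst, Npy, Cck, Tac2, Adcyap1 and Nts) and replicate 1 for 4 (Vip, Crh, Tac1 and Cort).

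**Figure D3:**
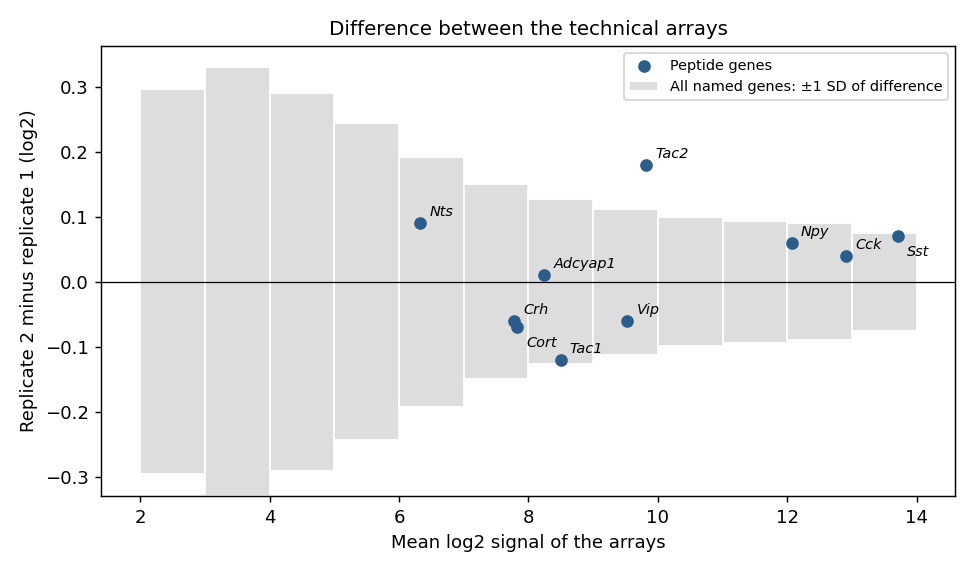
Difference between the technical arrays (replicate 2 minus replicate 1, log2) against mean log2 signal for the 10 precursor genes (points), over grey bars that span 1 SD of the difference to either side of 0 for all named genes in steps of 1 log2 unit. Tac2, at 0.18, is the one member that lies beyond the bar at its signal, and the bars narrow from a signal of 3 upward.

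The receptors and binding proteins through which these peptides act were read from the same RNA. Of the 23 measured, 19 were above background, beside 60.3% of all named genes. The out-of-tissue threshold was passed by 14, beside 38.2% of all named genes. Their median signal was 7.84. At least 1 receptor of each peptide family passed background, which is a weak criterion given the share of all genes that did. Because the RNA pools cells, signal of a peptide and of its receptor does not show that the same cells hold both.

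Of the 5 somatostatin receptors, which also bind cortistatin, 4 were above background. Sstr2 gave 8.84 on replicate 1 and 8.81 on replicate 2. Sstr1, Sstr3 and Sstr4 averaged 7.55, 7.92 and 8.09. Sstr5 gave 4.98 and 5.65 and was not called. Among the neuropeptide Y receptors Npy1r gave 9.20 on replicate 1 and 9.25 on replicate 2, and Npy2r averaged 7.345 ± 0.15. Npy5r, at 6.81 and 6.98, passed background but not the out-of-tissue threshold, and Npy4r, a receptor best known for pancreatic polypeptide, was not called at 4.88 and 5.02.

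The PACAP receptor Adcyap1r1 gave 10.24 on replicate 1 and 10.25 on replicate 2. The receptors shared by VIP and PACAP, Vipr1 and Vipr2, averaged 7.84 ± 0.01 and 6.395 ± 0.09, and Vipr2 did not reach the 99th percentile threshold. The cholecystokinin receptors fell on different sides of background. Cckbr, the type known as the main one in brain, gave 10.65 on both arrays, whereas Cckar, the type best known from gut and pancreas, gave 4.81 on replicate 1 and 4.21 on replicate 2.

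For corticotropin-releasing hormone, the receptor Crhr1 gave 8.15 on replicate 1 and 8.10 on replicate 2. Crhbp, a secreted protein that binds the hormone, averaged 9.22 ± 0.11. The receptor Crhr2 averaged 6.235 ± 0.04 and passed background only. The tachykinin receptors had small margins or none. Tacr1, the substance P receptor, gave 6.68 and 6.53, Tacr2 gave 5.67 and 5.70, and Tacr3, the neurokinin B receptor, was not called at 5.18 and 5.45. None of the 3 tachykinin receptors passed the out-of-tissue threshold, although both tachykinin precursors did. All 3 neurotensin binding proteins passed that threshold, although Nts did not: the receptors Ntsr1 and Ntsr2 averaged 8.915 ± 0.12 and 8.77 ± 0.13, and the sorting receptor Sort1 averaged 9.46, from probe sets at 12.02 and 6.905.

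**Figure D4:**
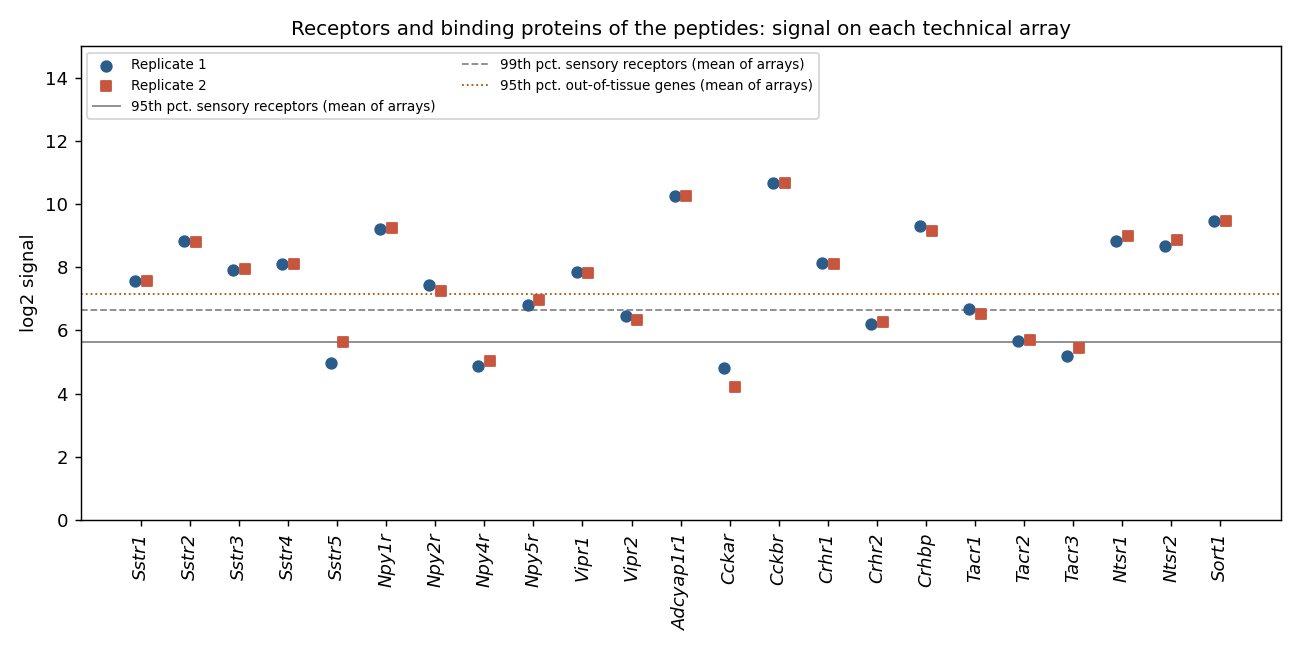
Log2 signal of the 23 measured receptors and binding proteins on replicate 1 (circles) and replicate 2 (squares), with the same 3 threshold lines. Npy4r, Cckar and Tacr3 lie below the background line, and Cckbr (10.65) and Adcyap1r1 (10.24 and 10.25) lie well above it. Sstr5 was not called, although its replicate 2 value of 5.65 lies just above the line, which is the mean of the arrays' thresholds.

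Genes that turn precursors into peptides were above background throughout. All 10 measured processing genes were called, beside 60.3% of all named genes, with a median signal of 9.59. Pcsk2 was not analysed here. The convertase Pcsk1, which cuts precursors at pairs of basic residues, gave 9.38 on replicate 1 and 9.29 on replicate 2. Cpe, the carboxypeptidase that trims the cut ends, averaged 12.74 ± 0.04, and Pam, the enzyme that amidates the ends of peptides such as neuropeptide Y and substance P, averaged 11.625 ± 0.09. Scg5, a chaperone of the convertase that Pcsk2 encodes, averaged 10.815 ± 0.08. Of the 10, only Pcsk7, a convertase of the wider secretory pathway, missed the out-of-tissue threshold, at 6.83 on replicate 1 and 6.69 on replicate 2.

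All 10 dense-core vesicle genes passed background (60.3% of all named genes) and the out-of-tissue threshold (38.2%), with a median of 11.41. The granins Chga and Chgb averaged 11.52 ± 0.04 and 12.09 ± 0.07, and the secretogranins Scg2 and Scg3 averaged 11.645 ± 0.06 and 11.24 ± 0.04. The mean of Syt4, a synaptotagmin of these vesicles, was 8.01 over probe sets at 7.065, 11.325 and 5.65. Of 10 peptidases that break peptides down, 9 were above background and 7 passed the out-of-tissue threshold, beside the same shares of all named genes. Their median was 8.34. Mme (neprilysin) averaged 8.29 ± 0.04, Ece1 8.86 ± 0.01, Ece2 6.615 ± 0.05 and Thop1 8.385 ± 0.01. Dpp4 was not called at 4.78 and 4.65.

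Genes related to the members but outside their number were read in the same way. Of 11 such relatives 6 were above background (54.5%, with 60.3% of all named genes), and their median was 5.89. The 99th percentile threshold was passed by 2, beside 45.0% of all named genes. The out-of-tissue threshold was passed by 0, beside 38.2%. In the neuropeptide Y family Pyy averaged 5.305 ± 0.18 and was not called, and Ppy averaged 6.155 ± 0.21 and was. Gast, the gastrin precursor related to Cck, gave 7.16 on replicate 1 and 7.26 on replicate 2, and Ucn, related to Crh, gave 6.89 and 6.88. These were the 2 relatives above the 99th percentile threshold. Ucn2 and Ucn3 averaged 4.70 ± 0.40 and 5.28 ± 0.13 and were not called. The tachykinin gene Tac4 gave 5.61 and 5.64, just under background.

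Among relatives of Vip and Adcyap1, Sct averaged 6.265 ± 0.12, Gip 6.47 ± 0.38 and Ghrh 5.89 ± 0.23, all called, and Gcg was not called at 5.085 ± 0.04. Of 19 measured peptide precursors known from hypothalamus or brainstem, 8 were above background (42.1%, with 60.3% of all named genes), with a median of 5.42. Hcrt and Pmch, markers of lateral hypothalamic neurons, were not called at 5.055 ± 0.06 and 4.325 ± 0.09. Oxt averaged 6.425 ± 0.12 and Avp 6.76 ± 0.07, both called and both higher than the member Nts, at 6.325. Avp also passed the 99th percentile threshold, which Nts missed. The others above background were Trh at 5.925, Ghrh, Qrfp at 6.475, Prlh at 6.355, Rln3 at 6.31 and Cartpt. Ghrh is counted both here and among the relatives. Cartpt, the precursor of the CART peptides, gave 8.05 on replicate 1 and 8.24 on replicate 2. It was the 1 gene of that list above the out-of-tissue threshold, which 38.2% of all named genes passed. The lists rest on different probe sets, and the differences between them were not tested.

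**Figure D5:**
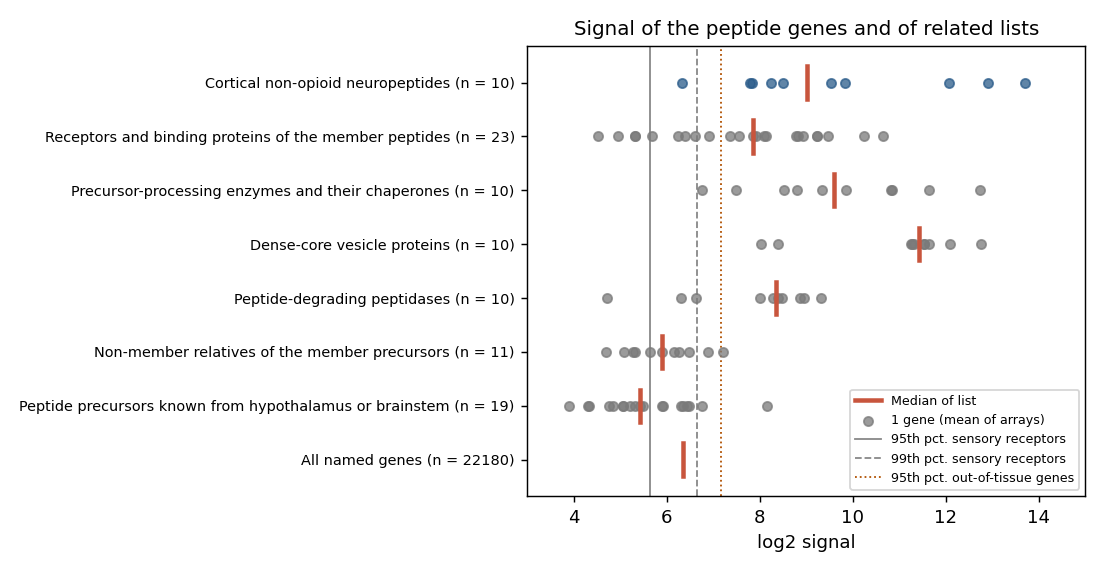
Mean log2 signal of each gene (points) in the 10 precursor genes and in 6 related lists, with the median of each list and of all named genes as a red bar, and vertical lines at the same 3 thresholds. The precursor genes have a median of 9.015, the relatives 5.89, the hypothalamic and brainstem precursors 5.42 and all named genes 6.355.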

How the data were processed

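Ribosome-bound RNA was labelled with biotin using the Affymetrix GeneChip WT Plus kit and measured on 2 arrays, per the labels' protocols. The authors deposited 1 value per probe set and array, read here as log2 signal from the values' range; how background was corrected, probes were summarised and arrays were normalized, and the log base, is not given in the sources used here. Of 34472 probe sets, 23521 named 1 gene, 1814 named several and were not used, and 9137 are unnamed here. Probe sets of a gene were averaged, giving 22180 genes. All 10 member symbols matched a RefSeq gene table of GRCm38.p6 through their gene identifiers. The table held 0 further sample columns.

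With 1 group of technical replicates no test was possible, and no p-value is given. Precision is limited by there being 2 arrays. Calls compare each gene with percentiles taken within each array. The out-of-tissue list held 32 measured genes. Named genes were all members, all receptors and relatives, and of each other list the first 4 measured and those on the other side of background from most. In addition Cartpt, Pcsk7, Syt4, Odf1 and Acta1 were named after their values were seen, and cell type marker lists are given mainly as counts. Members and lists were chosen with earlier results of these data known. Alternatives were 4 other thresholds, all higher, the highest probe set, single-probe-set genes, quantile normalization and leaving out either array. The accuracy of calls for signals near a threshold, such as those of Nts, was not tested. Python 3.11.15, pandas 2.3.3, numpy 2.4.6 and matplotlib 3.10.9 were used.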

Additional observations from a re-analysis of the deposited data

How the results depend on the processing

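All 10 members stayed above background with the median of all probe sets as threshold, with the highest probe set of a gene, with genes of 1 probe set only, after quantile normalization and on each array alone. Each member has 1 probe set, so the probe set settings act on it through the threshold alone. A call already required both arrays, so either array alone had to call every member. These settings are therefore weak checks. At the 99th percentile of the chemosensory receptors, at the out-of-tissue threshold and at that threshold without Odf1, 9 were called, and the mean margin of Nts turned to -0.314, -0.833 and -0.442. The setting without Odf1 was chosen after seeing the data. At the out-of-tissue threshold the count over all named genes was 8482. The 99th percentile was passed by 2 of 11 relatives, 2 of 19 hypothalamic precursors, 4 of 7 microglia and 4 of 8 vascular markers. Of all named genes, 45.0% passed it. At the out-of-tissue threshold the counts of these lists were 0, 1, 3 and 2, beside 38.2% of all named genes. Without Odf1 they were 2, 1, 3 and 4, beside 42.9%. The other list counts changed by 1.5-fold or less at these thresholds. The 99th percentile is higher than the 95th by construction; the height of the out-of-tissue thresholds comes from the data. The array differences of the members kept their sign under quantile normalization, except Cck, at -0.045. No paired analysis was possible because there is 1 group. Without control-probe background or detection calls, low signals such as that of Nts cannot be placed more exactly.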
